A study of Sus scrofa with 12 samples.

Results

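The genes described here are the 8 members of the MYC, MAX and MXD network: MYC and its partner MAX, which form the activating branch, and the antagonists MXI1, MXD1, MXD3, MXD4, MNT and MGA. Of the 18060 genes in the deposited expression table, 7 of the members carried their symbol there. MXI1 was listed under its Ensembl identifier ENSSSCG00000022128 alone and was matched through a table of gene names. The samples were primary granulosa cells from ovarian follicles of crossbred sows, kept for 12 h under normoxic gas, 21% O2 and 74% N2, or under hypoxic gas, 1% O2 and 94% N2, both with 5% CO2, with 3 biological replicates of each. From each replicate, fragmented poly(A) RNA was sequenced directly (input) and after pulldown with an antibody against N6-methyladenosine (m6A), 12 libraries in all. The 6 input libraries supply RNA levels, and the m6A libraries enter through the authors' deposited peak lists, 1 per condition. The cells are a primary culture in serum, and the sources used here do not say whether the replicates came from different animals, so the p-values measure the spread between these cultures.

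MYC is a transcription factor that binds E-box DNA as a dimer with MAX and activates genes of growth, ribosome production and metabolism. MAX is also the partner of the MXD proteins, of MNT and of MGA, which occupy the same sites and recruit repressor complexes, so the members compete both for MAX and for DNA. MXI1 is also known as a gene that hypoxia-inducible factors (HIF) can induce, and MYC itself has a short-lived mRNA and protein. In granulosa cells the network is known for its link to proliferation and follicle growth.

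Levels are in FPKM, a unit that divides the fragments of a gene by its length and by the size of the library, so that they can be set side by side between genes. The sequencing depth of each library is unknown, because the table holds no counts. The labels name 1 batch. Median-ratio scaling factors were 1.15, 1.17 and 1.08 in the normoxia libraries and 0.935, 0.984 and 0.753 in the hypoxia libraries, so they separated by condition. The third hypoxia library had the lowest factor, and values are given with and without it where a result rests on it. Of 13 listed granulosa markers 7 were at or above 1 FPKM in every library, FOXL2 and FSHR among them, while CYP19A1, AMH, HSD17B1 and STAR stayed below 1 FPKM throughout. The summed granulosa markers lay at 337 to 539 FPKM in normoxia and 168 to 322 in hypoxia, but most of that sum is CYP11A1 (limma adjusted p = 0.061). Of the 9 tested 1, INHBB, was higher (0.90) and 2, FSHR and AMHR2, were lower (-0.72 and -1.07), and the lower calls did not pass after median-ratio scaling. The 8 fibroblast and smooth muscle markers, mostly the actin gene ACTA2, summed to 7668 to 9437 FPKM in normoxia and 3985 to 4993 in hypoxia. They did not move together: ACTA2 and DES were lower, while PDGFRA and COL1A1 were higher, and DES did not pass after scaling. The summed theca, endothelial and leukocyte markers were at most 7.45, 6.93 and 7.60 FPKM in any library. The leukocyte sum was 3.70 to 4.67 FPKM in normoxia and 2.79 to 7.60 in hypoxia. Endothelial PECAM1 was lower (-0.99, limma adjusted p = 0.00414, 0.0224 after scaling), as was theca NR2F2 (-0.78, limma adjusted p = 0.0493, 0.124 after scaling). PTCH1, CD14 and CD68 did not pass. The part of these marker shifts in the results below was not tested. In bulk RNA, fewer cells of a type and less RNA per cell cannot be told apart.

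MXI1 was the 1 member of 8 that passed the test, and it rose. The other 7 members, MYC and MAX included, did not pass. All 8 were tested with limma on log2(FPKM + 1) within the fit of 10196 genes, with Benjamini-Hochberg adjustment over all of them, at an adjusted p under 0.05. In that fit 5.4% of all genes tested were called higher in hypoxia and 21.1% lower, and the median log2 fold change was -0.26. A member's value near zero therefore lies above most genes.

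**Figure D1:**
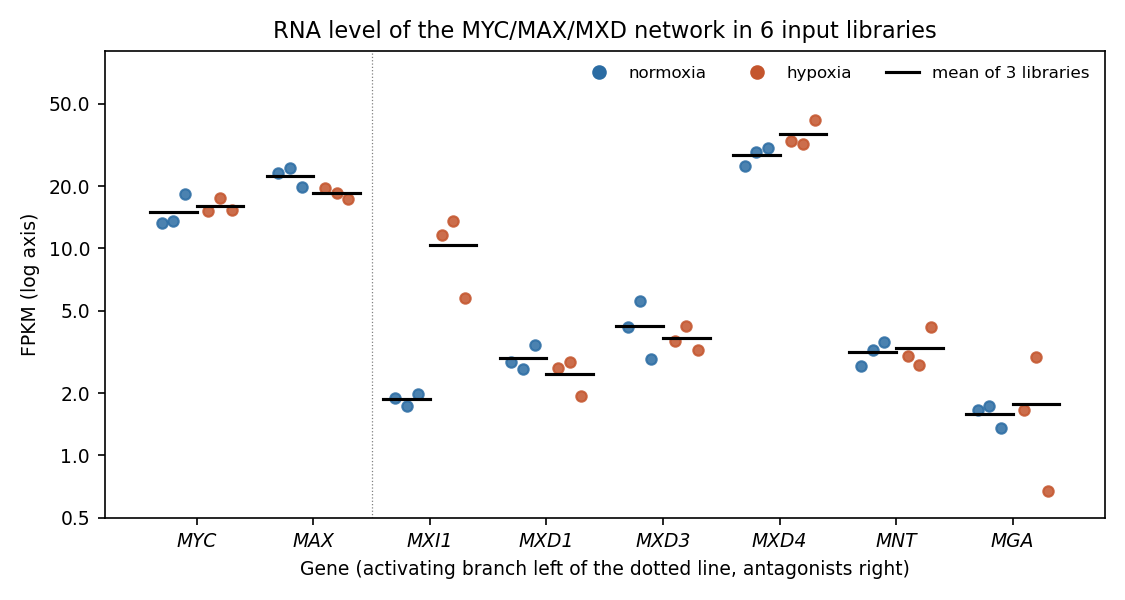
FPKM (log axis) of the 8 network genes in each input library, 3 normoxia points and 3 hypoxia points per gene, with a bar at the mean. MXI1 lies at 1.74 to 1.99 FPKM in normoxia and 5.74 to 13.6 in hypoxia, and it is the gene with the widest separation of the 2 conditions.

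In normoxia the order of the levels was MXD4, MAX, MYC, MXD3, MNT, MXD1, MXI1 and MGA. The libraries of MXD4, MAX and MYC did not overlap with those of their neighbours in this order. MXD3 overlapped with MNT, MNT with MXD1, and MXI1 with MGA. In hypoxia MXI1 moved from the seventh to the fourth place, above MXD3 and below MYC, with no overlap on either side. MAX and MYC overlapped there.

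MYC, the activator of the network (chromosome 4, 12455122 to 12461078, minus strand, build Sscrofa11.1), had 13.3, 13.5 and 18.3 FPKM in the normoxia libraries and 15.1, 17.5 and 15.3 in the hypoxia libraries. The third normoxia library held the highest value of all 6, and the conditions overlapped. The means were 15.0 ± 2.81 and 16.0 ± 1.34 FPKM (SD, n = 3). The log2 fold change was 0.09 (SE 0.171, limma adjusted p = 0.734), with a 95% interval from -0.31 to 0.50. On the (FPKM + 1) scale this interval runs from a ratio of 0.809 to one of 1.41, so a modest change in either direction is not excluded by these libraries.

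MAX, the partner that every other member needs to bind an E-box well (chromosome 7, 89142969 to 89168201, minus strand), had 23.1, 24.4 and 19.8 FPKM in normoxia and 19.6, 18.6 and 17.2 in hypoxia. Each hypoxia library lay below each normoxia library, by as little as the gap between 19.8 and 19.6 FPKM. Such a separation was found for 44.1% of all tested genes, and for 34.9% with hypoxia as the lower group. The log2 fold change was -0.26 (SE 0.146, limma adjusted p = 0.232), equal to the median of all genes at 2 decimals, and it was 0.08 after median-ratio scaling.

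MXI1 codes for a member of the MXD family that represses E-box genes through the SIN3 corepressor (chromosome 14, 120643830 to 120724099, plus strand). Its level was 1.89, 1.74 and 1.99 FPKM in the normoxia libraries and 11.7, 13.6 and 5.74 in the hypoxia libraries. The normoxia libraries were close together, whereas hypoxia library 3 lay well below the other 2 hypoxia libraries, and it still lay above every normoxia library. The mean rose from 1.87 ± 0.126 to 10.3 ± 4.10 FPKM (SD, n = 3), a ratio of 5.52. The log2 fold change was 1.91 (SE 0.294, limma adjusted p = 0.00468), with a 95% interval from 1.21 to 2.60, higher in 3 of 3 hypoxia libraries. It was the gene with rank 113 among 10196 by log2 fold change.

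The rise of MXI1 did not rest on a single library. Without the third hypoxia library the log2 fold change was 2.24 (limma adjusted p = 1.66e-06), and with each of the 6 libraries left out in turn it ranged from 1.69 to 2.24, with adjusted p-values of at most 0.0322. After median-ratio scaling, under which 7.34% of all genes were higher, it was 2.18 (limma adjusted p = 0.00115). An exact two-sided permutation test of 3 against 3 libraries cannot go below 0.1, the value it gave for MXI1. It gave the same value for MAX and MXD4, which did not pass, so it does not set MXI1 apart. The authors' deposited table rests on the same 6 input libraries, so its ratio of MXI1, also 5.52, is no independent check. The q-value there was 6.97e-15, and the gene was marked significant, as were 13.5% of all genes there, 4.75% as higher. The q-values of the other 7 members in the authors' deposited table ran from 0.102 for MXD4 to 0.994 for MAX, and none of those 7 was marked.

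MXD4, another MXD family repressor that is known from resting and differentiating cells (chromosome 8, 1203172 to 1216725, minus strand), was the most abundant member in both conditions. Its level was 25.0, 29.3 and 30.6 FPKM in normoxia and 33.0, 31.8 and 41.9 in hypoxia. Every hypoxia library lay above every normoxia library, and the third hypoxia library was the highest. Groups separated in this direction for 9.25% of tested genes. The log2 fold change was 0.32 with a 95% interval from -0.07 to 0.70 (SE 0.164, limma adjusted p = 0.206) and did not pass. It was 0.66 after median-ratio scaling (limma adjusted p = 0.11).

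The 2 remaining MXD genes, MXD1 and MXD3, were low. MXD1, known from differentiating cells (chromosome 3, 72517837 to 72545247, minus strand), had 2.82, 2.63 and 3.41 FPKM in normoxia and 2.64, 2.83 and 1.93 in hypoxia. Its log2 fold change was -0.19 (SE 0.181, limma adjusted p = 0.485). MXD3, known from cells in S phase (chromosome 2, 80637323 to 80641950, plus strand), had 4.19, 5.57 and 2.92 FPKM in normoxia and 3.57, 4.22 and 3.24 in hypoxia, giving a difference of -0.13 on the log2 scale (SE 0.225, limma adjusted p = 0.71). Both genes overlapped between conditions, and both had a small positive value after median-ratio scaling, 0.06 and 0.15. MXD3 overlaps PRELID1 on the opposite strand, which had a mean of 31.5 FPKM in normoxia and 32.8 in hypoxia. The library preparation marks strand, but the sources used here do not say whether the FPKM used strand, so the level of MXD3 is uncertain.

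MNT and MGA are the large antagonists outside the MXD family. MNT is known as a broadly expressed repressor (chromosome 12, 48469239 to 48486729, minus strand), and its level was 2.71, 3.24 and 3.55 FPKM in normoxia and 3.01, 2.72 and 4.15 in hypoxia, giving a difference of 0.04 on the log2 scale (SE 0.191, limma adjusted p = 0.92). MGA, a scaffold of a Polycomb-type complex with both a T-box and a helix-loop-helix domain (chromosome 1, 129594795 to 129697408, minus strand), had 1.66, 1.74 and 1.36 FPKM in normoxia and 1.67, 2.98 and 0.673 in hypoxia. The hypoxia libraries of MGA held both the highest and the lowest value of the 6, with a coefficient of variation of 65.3% against 12.5% in normoxia. Its log2 fold change was 0.02 (SE 0.307, limma adjusted p = 0.979), with a 95% interval from -0.71 to 0.74, the widest of the 7 that did not pass. Without hypoxia library 3 the log2 fold changes of those 7 were 0.12 for MYC, -0.22 for MAX, 0.20 for MXD4, -0.078 for MXD1, -0.067 for MXD3, -0.10 for MNT and 0.34 for MGA, and none of the 7 passed.

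**Figure D2:**
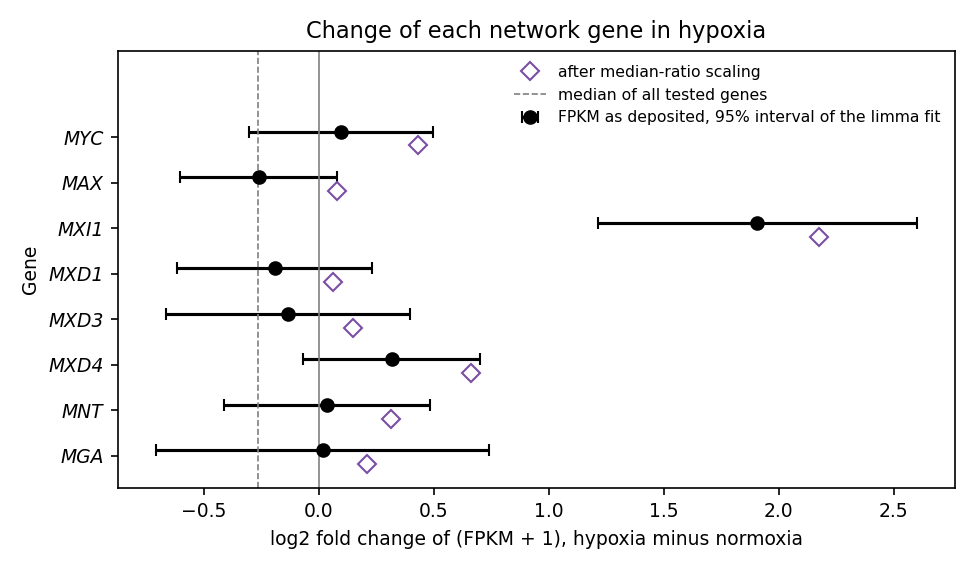
Log2 fold change of (FPKM + 1) in hypoxia for each network gene, with the 95% interval of the limma fit (filled points) and the value after median-ratio scaling (open diamonds). The interval of MXI1, 1.21 to 2.60, lies clear of 0, the other 7 intervals include 0, and the dashed line marks the median of all tested genes at -0.26.

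Summed over the 6 antagonists, which is a description across members with no test, the RNA was 38.2, 44.3 and 43.8 FPKM in the normoxia libraries and 55.6, 58.2 and 57.6 in the hypoxia libraries. The hypoxia sums all lay above the normoxia sums. MXD4 made up 67.1% ± 2.36 of the sum in normoxia and 62.3% ± 9.32 in hypoxia (SD, n = 3). Its hypoxia shares were 59.4%, 54.7% and 72.7%, with libraries 1 and 2 below and library 3 above every normoxia library (65.3% to 69.8%). The share of MXI1 was 4.94%, 3.92% and 4.54% in normoxia and 21.0%, 23.4% and 9.95% in hypoxia. Without MXI1 the sum was 40.2 ± 3.38 FPKM in normoxia and 46.8 ± 4.42 in hypoxia.

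Against MYC, the antagonist sum was 2.87, 3.27 and 2.40 times the MYC level in normoxia and 3.68, 3.32 and 3.76 times in hypoxia. These ratios separated the conditions, with the smallest gap between 3.27 and 3.32. The ratio of MXI1 to MYC was 0.142, 0.128 and 0.109 in normoxia and 0.772, 0.776 and 0.374 in hypoxia. A ratio within a library does not depend on the scaling of that library, so the wide separation of MXI1 from MYC holds on the deposited and on the rescaled values. RNA ratios say nothing of the amounts of protein or of dimers.

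**Figure D3:**
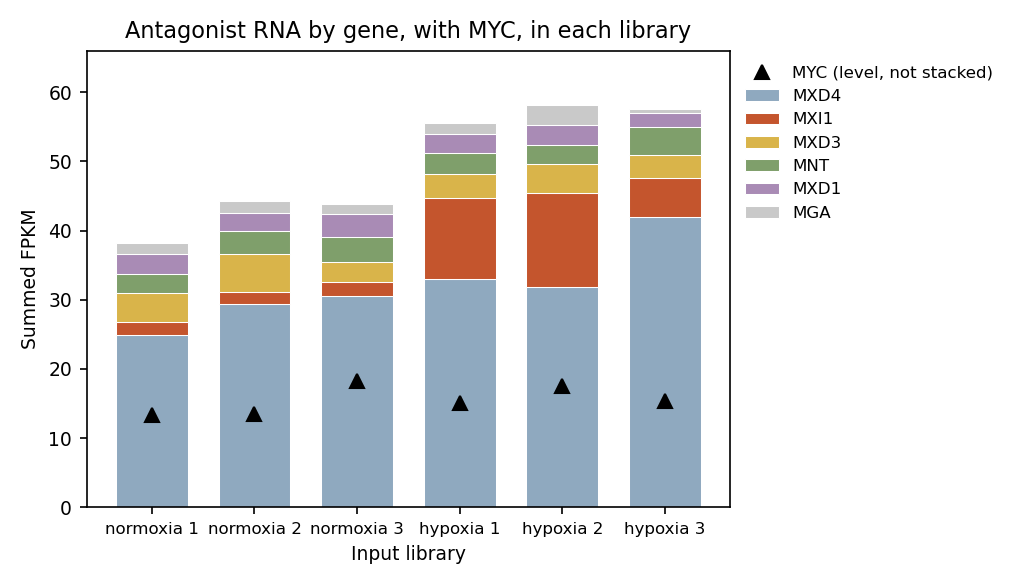
Stacked FPKM of the 6 antagonist genes in each input library, with the MYC level as a triangle. MXD4 forms the largest block in all 6 libraries, the MXI1 block is 1.74 to 1.99 FPKM high in normoxia and 5.74 to 13.6 in hypoxia, and MYC stays between 13.3 and 18.3 FPKM.

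The genes with the most similar profiles were found by the root mean square difference of gene-centred log2(FPKM + 1) values over the 6 input libraries, among 10195 other tested genes. For MXI1 they were GXYLT2 (difference 0.147), which codes for a xylosyltransferase of Notch, CCN3 (0.165), which codes for a secreted matrix protein, and EGLN1 (0.175), which codes for the oxygen-dependent prolyl hydroxylase that marks HIF alpha subunits for degradation. EGLN1 had 9.29 FPKM in normoxia and 32.2 in hypoxia. CCN3 had means of 0.103 FPKM in normoxia and 2.70 in hypoxia. It met the 1 FPKM filter through the hypoxia libraries alone, so its place here carries no weight. For MYC they were ARMH4 (0.0705), the interferon-induced ubiquitin-like gene ISG15 (0.0710) and MTSS1 (0.0835), and these 3 did not pass the test either.

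The wider network and its cofactors were described by counts. MLX, the partner of the glucose-sensing factors that run parallel to MAX, fell from 17.3, 19.8 and 19.9 FPKM to 10.3, 9.95 and 10.7 (log2 fold change -0.82, SE 0.138, limma adjusted p = 0.00598), but had -0.49 with an adjusted p of 0.13 after median-ratio scaling. MLXIP had 0.20 (limma adjusted p = 0.435). The MYC paralog MYCN was too low to be tested, at 0.494 to 0.767 FPKM in normoxia and 0.968 to 1.26 in hypoxia, and MLXIPL was at or near 0 in all 6 libraries. MYCL was not analysed here.

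Of 21 tested corepressors and coactivators, 8 were lower in hypoxia (38.1%, beside 21.1% of all genes) and 0 higher, with 10 at an unadjusted p under 0.05. Their median log2 fold change was -0.41, against -0.26 for all genes. KAT2A, an acetyltransferase that MYC recruits, fell to 2.54, 2.44 and 3.18 FPKM from 9.29, 10.7 and 10.8 (-1.60, SE 0.159, limma adjusted p = 0.000912). WDR5, a chromatin protein that anchors MYC, changed by -1.03, E2F6, a partner of MGA in its repressor complex, by -1.24, SAP18 by -0.94 and the deacetylase gene HDAC1 by -0.86. The count of 8 was 3 after scaling, where 7.39% of all genes were lower, 3 without normoxia library 2 and 5 without normoxia library 3. KAT2A, E2F6 and WDR5 were the 3 that passed after scaling. E2F6 did not pass without normoxia library 2 (limma adjusted p = 0.0507), and HDAC1 did not pass without normoxia libraries 1, 2 or 3 (0.0649, 0.0623 and 0.0576).

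Of 24 tested genes in a list of regulators of MYC mRNA or protein, 2 were higher (8.33%, beside 5.4% of all genes) and 4 lower (16.7%, beside 21.1%). NDRG1 is in the list, although it is known as a gene that MYC represses and that hypoxia induces. NDRG1 rose from 71.4, 75.6 and 97.3 FPKM to 252, 209 and 412 (log2 fold change 1.78, SE 0.267, limma adjusted p = 0.00421). IGF2BP2, an m6A reader that can stabilise MYC mRNA, had 0.704, 0.804 and 0.668 FPKM in normoxia and 2.03, 2.69 and 1.69 in hypoxia. It met the 1 FPKM filter through the hypoxia libraries alone, so its call carries no weight. Without it the 1 higher gene of the list was NDRG1. The log2 fold change of IGF2BP2 was 0.85 (limma adjusted p = 0.01003, and 0.0522 and 0.0509 without normoxia libraries 2 and 3). PIM1, a kinase known to stabilise MYC protein, fell from 24.1, 25.4 and 23.3 FPKM to 12.0, 12.4 and 11.7 (-0.95, limma adjusted p = 0.00286, 0.0427 after scaling). BIN1, an inhibitor of MYC, had -0.98, and USP36 and CDK9 had -0.58 and -0.56. These 3 did not pass after scaling (limma adjusted p from 0.0745 for BIN1 to 0.564 for CDK9), which left 1 lower gene, and the count was 1 or 2 without hypoxia library 1 or any 1 normoxia library. The count of 2 higher genes was 1 without normoxia library 2 or 3.

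Among genes that MYC is known to activate, most of a list made up mainly of nucleolar and ribosome production genes were lower in hypoxia. Of its 38 tested genes 27 were lower (71.1%) and 0 higher, beside 21.1% of all genes, with a median log2 fold change of -0.91 against -0.26. NOP56, a core protein of the box C/D particles that methylate ribosomal RNA, fell from 26.9, 25.4 and 23.5 FPKM to 8.47, 9.49 and 3.68 (-1.76, SE 0.305, limma adjusted p = 0.007). PPAN, a factor of large-subunit maturation, changed by -1.75, RRP9 by -1.64, the nucleolar chaperone gene NOLC1 by -1.49 and the helicase gene DDX18 by -1.40. The first 4 passed under each alternative tried. The list also holds the mitochondrial genes HSPD1, HSPE1, PHB1, PHB2 and TBRG4, of which PHB1 is among the 27 (-0.85, limma adjusted p = 0.00614) and the other 4 did not pass. DDX18 did not pass after scaling (limma adjusted p = 0.0622), with a pseudocount of 0.1 (0.0583), with no filter on low values (0.0741), or without normoxia libraries 1, 2 or 3 (0.126, 0.127 and 0.0815) or hypoxia library 1 (0.0951). The count of 27 was 13 after scaling, where 7.39% of all genes were lower, and 15 without normoxia library 2.

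In the list of translation and metabolism, 15 of 26 tested genes were lower (57.7%, beside 21.1% of all genes) and 0 higher, with a median log2 fold change of -0.83 against -0.26. EEF1E1, one of the 15, was below 1 FPKM in every hypoxia library and met the filter through normoxia alone, and without it 14 were lower. SLC7A5, an importer of large neutral amino acids, fell from 21.3, 26.3 and 26.5 FPKM to 4.00, 3.95 and 6.10 (log2 fold change -2.19, SE 0.195, limma adjusted p = 0.000729). CAD, which carries the first steps of pyrimidine synthesis and is a classical MYC target, fell from 5.50, 5.82 and 5.47 FPKM to 1.10, 1.24 and 1.47 (-1.54, limma adjusted p = 0.000929). CTPS1, which makes CTP, changed by -1.78, the mitochondrial serine enzyme gene SHMT2 by -1.54 and the glutamine carrier gene SLC1A5 by -1.48, and all 5 passed under each alternative tried. After scaling 12 of the 26 were lower, beside 7.39% of all genes, and 1 was higher without hypoxia library 3.

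The cell cycle list holds genes that MYC is known to activate and inhibitors that it is known to repress. Of 12 tested, 5 were lower (41.7%, beside 21.1% of all genes) and 1 higher (8.33%, beside 5.4%). CDK4, a kinase of the G1 phase, fell from 96.3, 110.2 and 103 FPKM to 45.5, 34.4 and 50.0 (log2 fold change -1.25, SE 0.172, limma adjusted p = 0.00297), with CCND1 at -1.25, E2F1 at -1.23, CCNE1 at -1.13 and E2F2 at -0.69. CDK4, CCND1 and CCNE1 passed under each alternative. E2F1 did not pass without normoxia library 2 (limma adjusted p = 0.0527). E2F2, with 1.15, 1.64 and 1.00 FPKM in normoxia and 0.322, 0.713 and 0.195 in hypoxia, met the filter through normoxia alone, so its call carries no weight, and without it 4 were lower. It did not pass after scaling (0.0734), with no filter on low values (0.0533), or without normoxia libraries 1, 2 or 3 (0.0966, 0.142 and 0.0656) or hypoxia library 1 (0.129). The list's count of 5 lower genes was 3 without normoxia library 2.

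The inhibitor gene CDKN2B, which MYC represses through ZBTB17, was the 1 higher gene, with 3.82, 4.62 and 4.39 FPKM in normoxia and 10.1, 11.4 and 5.83 in hypoxia (log2 fold change 0.89, limma adjusted p = 0.035). The call was lost with no filter on low values (0.0635) and without normoxia libraries 1, 2 or 3 (0.122, 0.105 and 0.0999) or hypoxia libraries 1 or 2 (0.131 and 0.0632). After scaling 3 genes of the list were higher, with MCM4, a replication helicase subunit (0.83, limma adjusted p = 0.0302), and CCND2, a D-type cyclin (0.59, limma adjusted p = 0.048), both of which MYC is known to activate, beside CDKN2B. The list also held 3 higher genes without hypoxia library 3. On the deposited scale MCM4 had 0.49 and CCND2 0.26, and neither passed. CDKN1A had -0.27 and CDKN1B -0.03, and neither passed.

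Genes known as targets of both MYC and HIF were higher for 7 of 8 (87.5%, beside 5.4% of all genes) and lower for 0, with a median log2 fold change of 2.55. The count was 6 with no filter on low values and without hypoxia library 1 or any 1 normoxia library, where PKM did not pass. They were VEGFA, the vascular growth factor gene (3.70), LDHA, which makes lactate (2.80), the glucose transporter gene SLC2A1 (2.77), PDK1, which shuts off pyruvate dehydrogenase (2.74), and the glycolytic genes HK2 (2.36), ENO1 (2.09) and PKM (0.76). LDHA rose from 169, 155 and 129 FPKM to 1303, 1238 and 719 (SE 0.249, limma adjusted p = 0.000738). PDK1 rose from 2.42, 2.12 and 1.46 FPKM to 24.0, 29.7 and 9.26. Hypoxia library 3 was the lowest of the hypoxia libraries for these 2 genes and for VEGFA, HK2 and TFRC, as for MXI1. It was the highest for SLC2A1 (213 FPKM), ENO1 (2196) and PKM (1157), so it did not lie on the same side across the list. TFRC, which codes for the transferrin receptor and is also in the metabolism list, had -0.12 (limma adjusted p = 0.795).

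**Figure D4:**
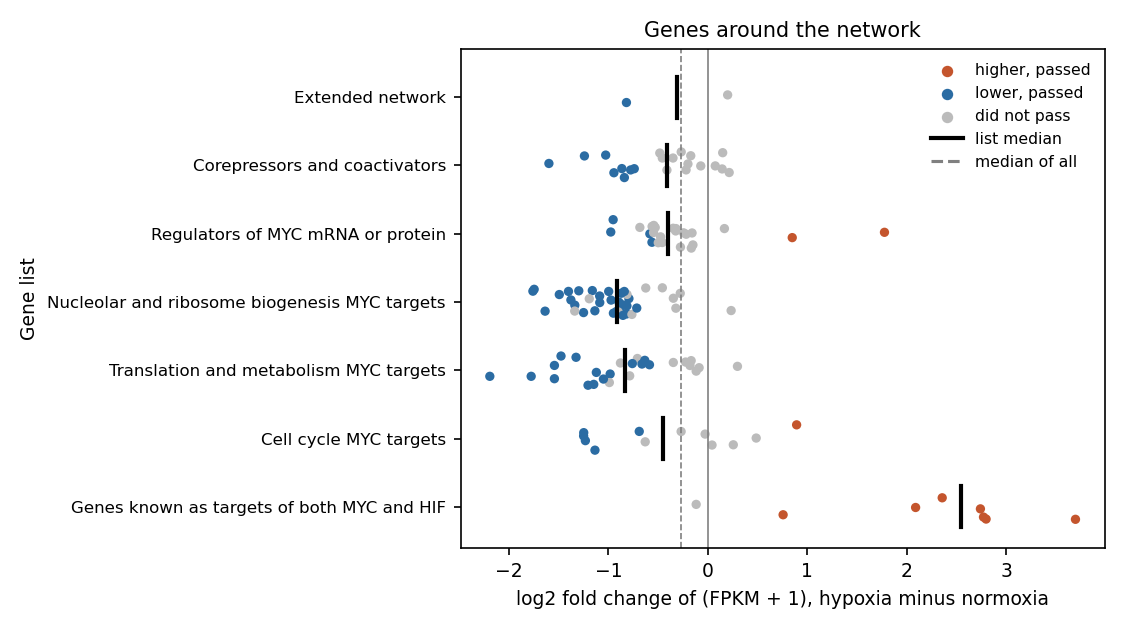
Log2 fold change of (FPKM + 1) in hypoxia for each tested gene of 7 lists around the network, coloured where the gene passed, with a bar at the list median and a dashed line at the median of all genes (-0.26). The nucleolar and the translation lists lie mostly to the left, with medians of -0.91 and -0.83, and the targets shared with HIF lie to the right.

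The deposited m6A peak lists held peaks of all 8 members in both conditions, 26 in normoxia and 29 in hypoxia. A peak in both lists was found for 77.3% of tested genes, so this count is near that of genes at large. The peak enrichments of IP over input and their p-values are the authors' values per list and describe peaks within a list; they have no replicate error here. Positions are counted from 1, and a span runs from first to last base and includes introns. Of the peaks 18 of 26 in normoxia overlapped a hypoxia peak of the same gene by at least 1 base, and 22 of 29 in hypoxia overlapped a normoxia peak.

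MYC carried 2 peaks in each list, all annotated as exonic and in the part of the gene towards its 3′ end. The peak nearest the 3′ end ran from 12455212 to 12456020 in normoxia, 90 bases from the annotated end of the gene, with a 6.63-fold enrichment. In hypoxia it ran from 12455122, the last annotated base of the gene, to 12456080, with a 23.7-fold enrichment. Within its own list the normoxia peak stood at percentile 72.3 by enrichment and the hypoxia peak at percentile 98.1. The value of 6.63 is shared by 13 peaks of the normoxia list and that of 23.7 by 28 peaks of the hypoxia list. The other MYC peak was 4.84-fold enriched in normoxia (12457301 to 12457750) and 6.06-fold in hypoxia, where its span was longer (12456200 to 12457750).

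The authors' deposited table of differential m6A, which holds 1206 peaks, listed 0 peaks of MYC and 0 of the other 7 members. No member peak overlapped any peak of that table. A differential peak was listed for 10.9% of tested genes with a peak in either list, and for 8.76% of all genes with one, so a count of 0 among 8 genes is not far from what genes at large show. The higher enrichment of the MYC peak in the hypoxia list is therefore a difference between 2 lists with no test behind it.

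MXI1 had 3 peaks in each list. The 5′ UTR peak had the same span in both lists, 120646116 to 120661188, and was 7.40-fold enriched in normoxia (adjusted p = 0.331 in the deposited list) and 10.3-fold in hypoxia (adjusted p = 0.01995 in the deposited list). The value of 7.40 is shared by 831 peaks of the normoxia list and that of 10.3 by 443 peaks of the hypoxia list. The 3′ UTR peaks were weak, 2.05-fold in normoxia (120720576 to 120720725) and 1.90-fold in hypoxia (120720695 to 120720785), and the exonic peaks, 1.39-fold and 1.74-fold, did not overlap between the lists. By enrichment these 3′ UTR peaks stood at percentiles 15.4 and 7.05 of their lists, among the weaker peaks.

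MXD4 had a strong 3′ UTR peak in both lists, 9.24-fold in normoxia (1205022 to 1205799) and 7.31-fold in hypoxia (1205231 to 1205859). A second peak upstream of it was 2.32-fold and 2.19-fold enriched, annotated as 3′ UTR in normoxia and as exonic in hypoxia. A 5′ UTR peak stood in the hypoxia list alone (1216416 to 1216725), at 24.7-fold. It begins the gene and sits at percentile 98.3 of its list. The value of 24.7 is shared by 35 peaks of the hypoxia list. In the deposited hypoxia list this peak had an adjusted p of 5.01e-09, against 1e-208 for the strong 3′ UTR peak.

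**Figure D5:**
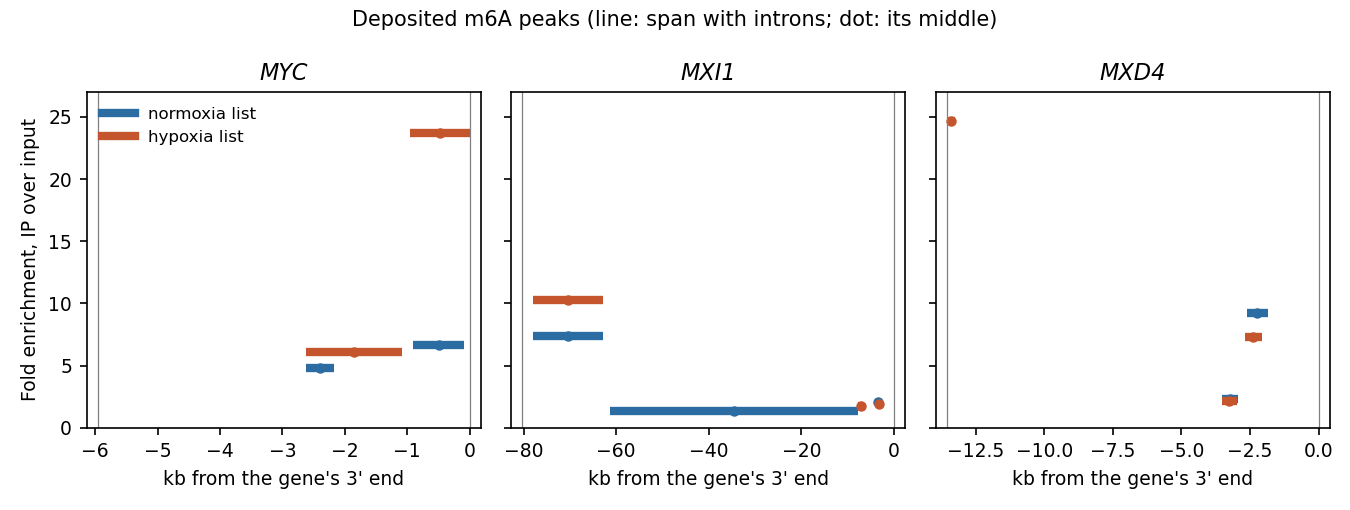
Fold enrichment of the deposited m6A peaks of MYC, MXI1 and MXD4 against the distance from the 3′ end of the gene in kb, with normoxia and hypoxia lists in different colours. The MYC peak at the 3′ end is at 6.63-fold in normoxia and 23.7-fold in hypoxia, the MXI1 5′ UTR peak is at 7.40-fold and 10.3-fold, and the 24.7-fold 5′ peak of MXD4 is in the hypoxia list alone.

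The remaining members had peaks of lower or similar enrichment. MAX had a 3′ UTR peak in both lists, 6.35-fold in normoxia and 5.19-fold in hypoxia, from the same first base (89143415), and a 5′ UTR peak that was 6.08-fold in normoxia and 1.63-fold in hypoxia (adjusted p = 0.0575 in the deposited list). The MAX value of 6.35 is shared by 470 peaks of the normoxia list and that of 5.19 by 10 of the hypoxia list. MXD1 and MXD3 had peaks of at most 3.18-fold and 2.27-fold. MNT had a 5′ UTR peak in both lists, 10.6-fold and 7.22-fold, and 3′ UTR peaks at different places in the 2 lists, of which the hypoxia one had an adjusted p of 0.249 in the deposited list. The value of 10.6 is shared by 375 peaks of the normoxia list and that of 7.22 by 970 of the hypoxia list. MGA, the longest member, had 12 peaks in each list, a number that 0.0883% and 0.137% of tested genes reached or passed, against a median of 2 peaks per tested gene with a peak. The MGA peak at the 3′ end of the gene was 1 span of 8.34-fold enrichment in normoxia (129594795 to 129596115, annotated as 3′ UTR) and 3 shorter spans of 3.52-fold to 7.70-fold in hypoxia, annotated as exonic, which shows that spans and region names of the 2 lists cannot be compared one to one.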

How the data were processed

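RNA levels were deposited by the authors as FPKM per gene for the 6 input libraries, per the file headers. The authors' deposited table of expression gives a ratio (fold change), its log2, a p-value and a q-value per gene. The authors' deposited peak tables give a log2 enrichment or log2 difference, a p-value and an adjusted p-value per peak; listed peaks have an unadjusted p-value of at most 0.049. The submitters' processing notes name build Sscrofa11.1, HISAT2 2.0.4 with fastp 0.19.4, HOMER 4.10, StringTie 2.1.2, FastQC and edgeR 4.1. The tool behind each table, and any pooling of replicates for peaks, are not stated in the sources used here.

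Here, limma 3.58.1 in R 4.3.3 (variance trend, robust) compared hypoxia with normoxia on log2(FPKM + 1) for genes that reached 1 FPKM in 3 or more libraries. This scale understates changes of low genes. Errors are SD for FPKM and limma SE for log2 fold changes. Low FPKM showed no steps of whole reads (at most 4 of 607 low genes shared a ratio between normoxia libraries 1 and 2). On simulated data the test recovered 43% of genes changed by 1 on the log2 scale and 79% of those changed by 2, with 3 false among 125 calls. A gene that did not pass can therefore not be taken as unchanged. The simulation used independent noise for each gene and library, changed 100 genes at each size among 10196, and held no shift common to all genes. In the real fit 26.5% of genes were called and the median log2 fold change was -0.26. The simulated rates of recovery and of false calls need not hold there. Peak starts were counted from 0 in the files and are given from 1. Alternatives were a pseudocount of 0.1, no filter, median-ratio scaling, each library left out, a replicate block and limma without trend and robust estimation, and for peaks an adjusted p under 0.05 and an overlap of 50%. Named genes were all members, the list genes that passed, up to 5 per list and direction by size of change, and the 3 most similar genes of MYC and MXI1; ENO1, PKM, PHB1, EEF1E1, MCM4, CCND2, the marker genes and genes given for context that did not pass were chosen after their values were seen. The members and lists were chosen with earlier results of these data known, and 1 gene of a list is not reported here. No gene or promoter sequence was used here.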

Additional observations from a re-analysis of the deposited data

How the results depend on the processing

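MXI1 was called higher under all 12 alternatives, with log2 fold changes of 1.69 to 2.32 and limma adjusted p-values of at most 0.0322. MYC had 0.02 to 0.43 and passed under none; MAX, MXD1, MXD3, MNT and MGA passed under none either. After median-ratio scaling the sign turned for MAX (0.077), MXD1 (0.061) and MXD3 (0.15), with the same values when a replicate block was added. Scaling divides normoxia values by factors above 1 and hypoxia values by factors below 1. It moved the median of all genes from -0.26 to 0.02. A pseudocount of 0.1 turned MGA (-0.056). The cause of the difference in factors, and of the turn of MGA, was not tested. With single libraries left out MXD3 ranged from -0.33 to 0.047, MNT from -0.10 to 0.13 and MGA from -0.29 to 0.34. The replicate block with median-ratio scaling, chosen after seeing the data, was the 1 setting under which MXD4 passed (0.66, limma adjusted p = 0.0333), for 2 members higher; it gave 1189 genes higher and 1162 lower.

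Over all genes 551 were higher and 2148 lower. After median-ratio scaling 748 were higher and 753 lower, and with single libraries left out 334 to 1143 were higher and 798 to 3186 lower, the lowest counts without normoxia library 2 and the highest without hypoxia library 3. The 60 lower list genes, E2F2 and EEF1E1 among them, were 33 after scaling and 34 to 71 with single libraries left out. The shares per list are given above. Of all genes 21.1% were lower, and 7.39% after scaling. The replicate block gave 695 higher and 2768 lower genes and changed no member's call. Deviations of libraries of the same number correlated at 0.59, 0.04 and 0.70. Normoxia library 1 went best with hypoxia library 2 (0.64). Normoxia library 3 went best with its own number, and so did normoxia library 2, by little (0.04 against 0.03). Deviations centred within 3 libraries cannot settle whether the numbers are pairs, and the main fit did not take them as pairs.

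Of the members' peaks 23 of 26 in normoxia and 26 of 29 in hypoxia had an adjusted p under 0.05; at an overlap of 50% of both spans 7 and 7 were shared. Unknown depth limits what can be said of MGA, MXD1 and MNT, the members with the lowest mean levels over the 6 libraries.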
